A study of Mus musculus with 3 samples.

Results

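Translation initiation factor genes were taken as all protein-coding genes of the RefSeq table of the mouse genome (assembly GRCm38.p6, the build also called mm10) whose symbol is Eif followed by a digit. Eif2ak3 and Eif4ebp1 were left out by the same rule. This gave 54 genes of 21779 protein-coding genes, and the other 21725 served as the comparison. The symbols were sorted into 14 complexes or families by name, of 1 to 14 genes each. The rule used gene names and no value from the peaks, but the choice was made with earlier results of these data known.

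Binding of HIF1α was mapped by ChIP-seq, the sequencing of DNA precipitated with an antibody, in hearts of wild-type mouse embryos of the Black-Swiss strain at E12.5, in mid-gestation. The 3 libraries were 2 HIF1α pulldowns and 1 input without antibody. The labels do not say whether the pulldowns came from separate pools of hearts, and they do not give the sex of the embryos. A single list of 17289 peaks, merged by the authors from both pulldowns, was analysed.

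HIF1α is the oxygen-regulated subunit of a transcription factor that pairs with ARNT and binds the short DNA core ACGTG or GCGTG in genes of the response to low oxygen. Initiation factors bring the small ribosomal subunit and the initiator methionine tRNA to the start codon of an mRNA: eIF2 carries the tRNA with GTP, eIF2B reloads eIF2 with GTP, the cap-binding eIF4 factors recruit the mRNA, and eIF3 joins the mRNA to the ribosome. Low oxygen is known to slow this step through phosphorylation of eIF2 and through the 4E-binding proteins, which hold the cap-binding protein eIF4E back from eIF4G. Binding near a gene is not a measurement of its expression, and no RNA was measured in these samples.

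Each peak has a score, which ran from 2 to 3315 with a median of 2, and 84.6% of peaks had a score of 2 or 3. The file does not say what the score is relative to, so it is used only to rank peaks within the list. Each peak name ends in 1 or 2, read as the number of calls merged into it. By this reading 1989 peaks (11.5%) joined 2 calls, with a median score of 4, and 15300 had 1 call, with a median score of 2. The list does not mark the pulldown behind a single call. No read counts were used, so the depth is unknown, and a gene without a peak was not shown to be unbound. With 1 merged list there is no replicate error. The 95% intervals given with shares are exact (Clopper-Pearson) and treat genes as units. They cover counting error only, and genes are not replicates. The tissue label could not be checked, because peaks do not measure marker expression.

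Of the 54 initiation factor genes, 27 had the centre of a peak within 5 kb of an end (50.0%, 95% interval 36.1 to 63.9%), against 5195 of the 21725 other protein-coding genes (23.9%). Over all protein-coding genes the share was 24.0%. Most of these genes had the peak close to an end. Within 1 kb the count was 22 of 54 (40.7%, 27.6 to 55.0%) for the initiation factor genes and 3517 (16.2%) for the other genes, and 16.2% for all protein-coding genes. A window of 50 kb took in 38 initiation factor genes (70.4%, 56.4 to 82.0%) and 63.6% of the others, as of all protein-coding genes, and the interval held the share of the others.

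Distances to the nearest peak were sorted into ranges. They were at most 0.5 kb for 22 initiation factor genes (40.7%) and 13.5% of other genes. Over 0.5 and up to 1 kb, a range with few genes of either group, lay 0 initiation factor genes and 2.67% of others. Distances were over 1 and up to 5 kb for 5 initiation factor genes (9.26%) and 7.72% of others. Between 5 and 50 kb lay 11 initiation factor genes (20.4%), against 39.7% of other genes. The median distance was 5.73 kb (quartiles 0.118 and 72.1 kb) for initiation factor genes and 28.4 kb (5.78 and 80.8 kb) for the others. Among genes with a peak within 1 kb, the nearest centre lay a median of 83 bp from the gene end for initiation factors (12 to 345 bp) and 146 bp for other genes. The member just inside the 5 kb limit was Eif2ak2, at 4848 bp, and the next beyond it was Eif4a3, at 6618 bp.

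**Figure D1:**
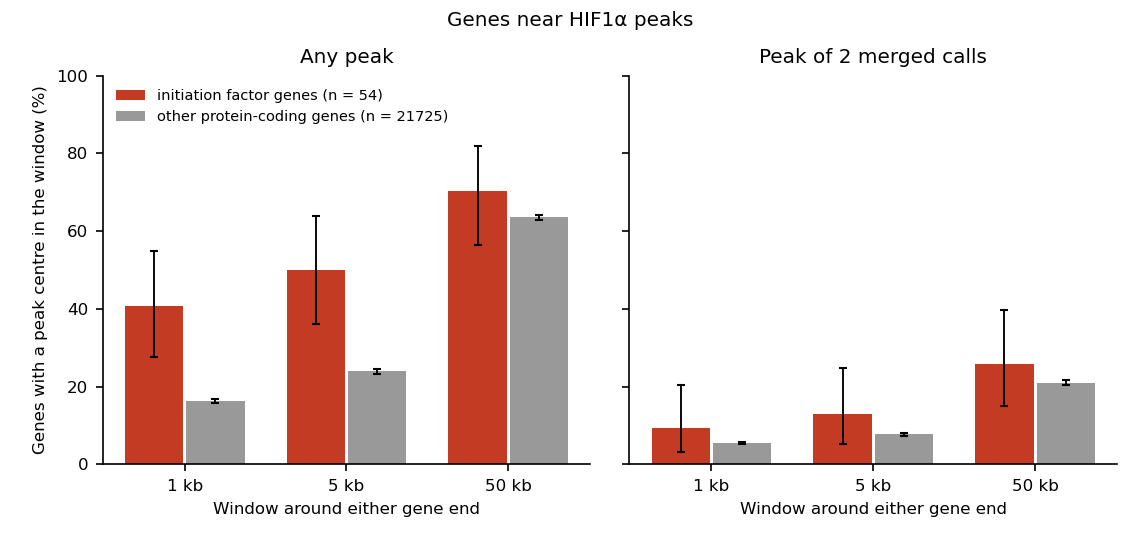
Share of genes (percent) with a HIF1α peak centre within each distance of either gene end, for initiation factor genes and, beside them, other protein-coding genes, with all peaks and with peaks of 2 calls. Lines on the bars are exact 95% intervals over genes. With all peaks the initiation factor genes stand at 40.7% within 1 kb, against 16.2% of other genes, and the groups come close together at 50 kb.

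These peaks lay at transcription starts. Strand was known for 18 of the 22 initiation factor genes with a peak within 1 kb, and the nearest peak was on the start side in all 18. Among other genes with a peak within 1 kb and a known strand it was on the start side in 2589 of 2858 (90.6%). The 3 initiation factor genes of known strand whose nearest peak was 1 to 5 kb away had it at the end side. Other genes at that distance had it on the start side in 680 of 1369 (49.7%).

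Peaks of 2 calls were fewer and separated the groups less. They lay within 5 kb of 7 initiation factor genes (13%, 5.37 to 24.9%), against 7.71% of other genes and 7.72% of all protein-coding genes. Within 1 kb the counts were 5 (9.26%, 3.08 to 20.3%), against 5.53% of other genes and 5.54% of all. Both intervals hold the share of the other genes. The 7 genes were Eif1b, Eif1ad, Eif2s2, Eif2b5, Eif5, Eif4a1 and Eif4ebp3. The score of the nearest peak within 5 kb had the same median of 3 in both groups, with a range of 2 to 13 for initiation factor genes and 2 to 157 for the others. A peak with a score of at least 4 lay within 5 kb of 10 initiation factor genes (18.5%), against 10.5% of others and 10.6% of all. For a score of at least 5 the counts were 6 (11.1%), against 5.28% of others and 5.29% of all. In all, 34 distinct peaks lay within 5 kb of the 27 genes, and 27 of these were single calls. Of the 54, 5 genes (9.26%) had 2 or more peaks within 5 kb, against 3.32% of other genes and 3.34% of all protein-coding genes.

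**Figure D2:**
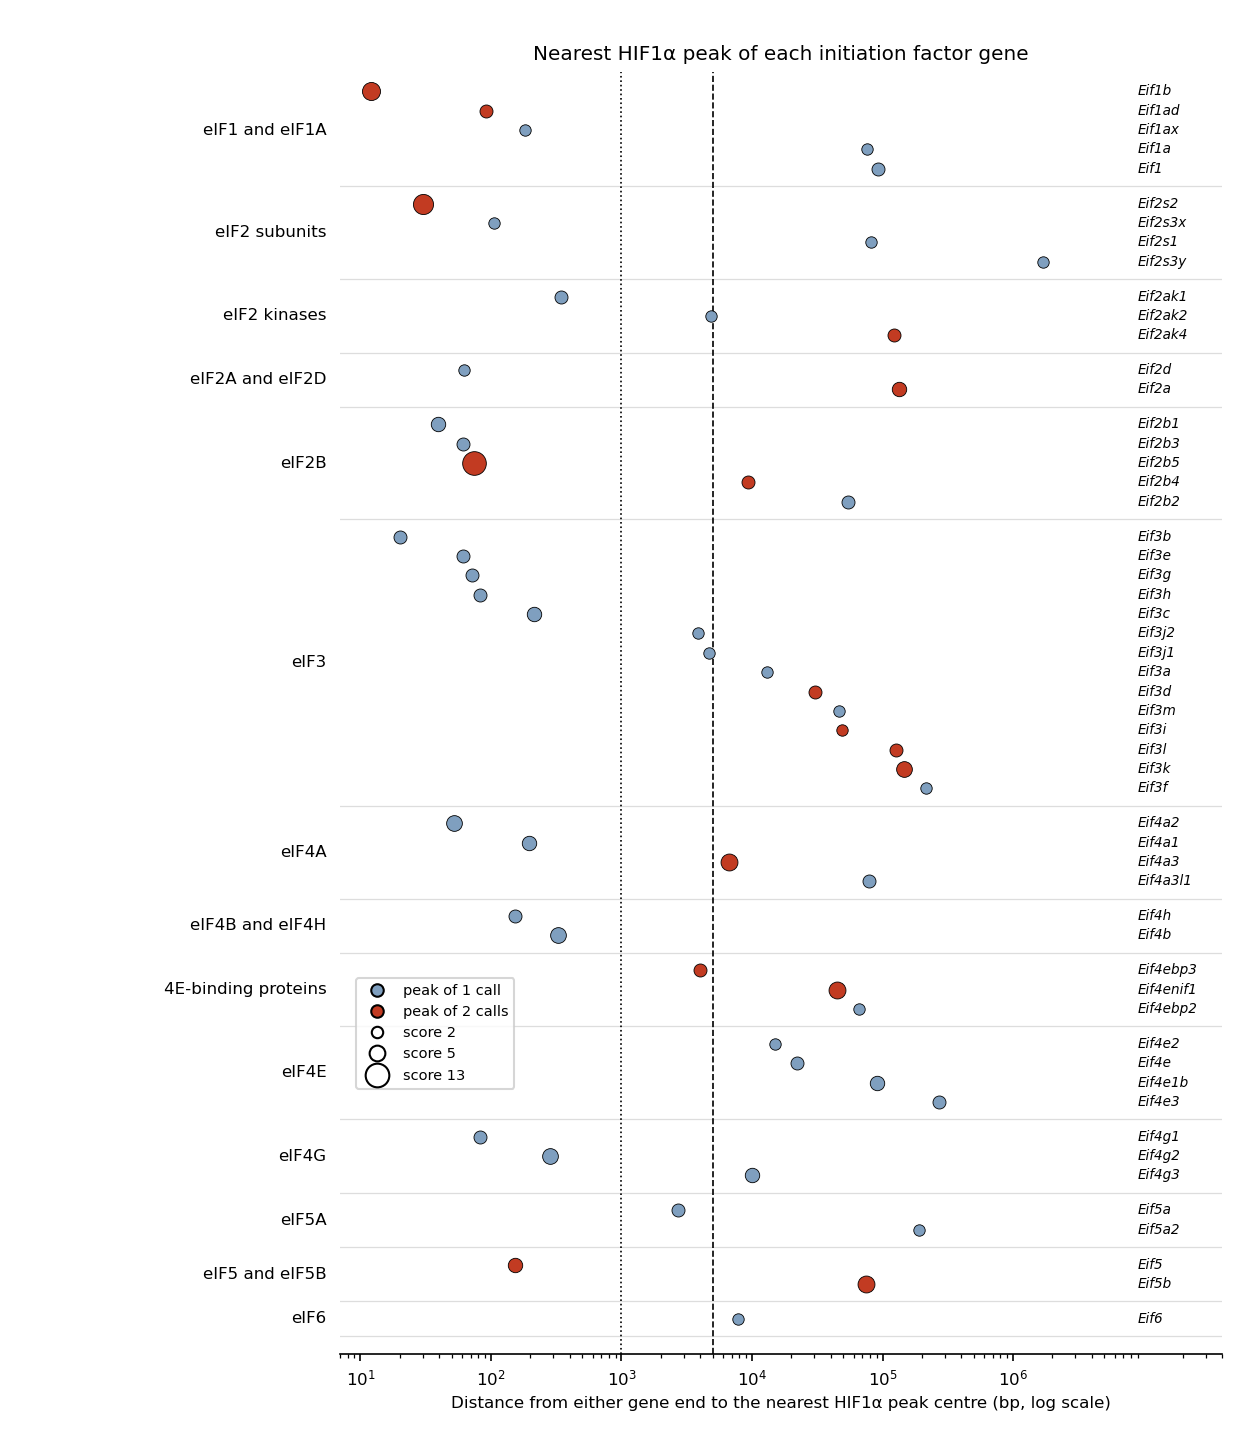
Distance in bp (log scale) from either end of each of the 54 initiation factor genes to the nearest HIF1α peak centre, by complex. Colour gives the calls merged into the peak, the area of a point grows with the score, and vertical lines mark 1 and 5 kb. No nearest peak lies between 345 and 2714 bp, though further peaks of Eif2ak1 and Eif4a1, not drawn, do. The 4 eIF4E genes all lie beyond 5 kb. Of all protein-coding genes, 24% had a peak centre within 5 kb.

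Promoter sequences, from 250 bases before to 50 bases after a start, were taken from RefSeq on GRCm38.p6. They covered 43 of the 54 initiation factor genes in 56 windows, since a gene can have several starts. Shown are the windows of the 3 genes with the highest-scoring peaks within 5 kb (Eif1b, Eif2s2 and Eif2b5), of Eif5 and Eif4a1 as genes with lower-scoring peaks at the start, and of Eif4e, which holds the motif but had no peak within 5 kb. Sequences run 5′ to 3′ on the strand of the gene, and capitals mark matches to ACGTG or GCGTG on either strand (CACGT and CACGC are the other strand), including the E-box CACGTG.

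Eif1b, chr9:120492356-120492655, plus strand: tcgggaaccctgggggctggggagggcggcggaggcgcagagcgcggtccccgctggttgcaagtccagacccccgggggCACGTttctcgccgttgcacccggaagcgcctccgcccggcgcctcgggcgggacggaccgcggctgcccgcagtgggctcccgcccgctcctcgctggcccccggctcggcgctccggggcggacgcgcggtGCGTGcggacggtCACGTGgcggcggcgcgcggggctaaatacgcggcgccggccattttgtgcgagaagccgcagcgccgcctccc
Eif2s2, chr2:154892857-154893156, minus strand: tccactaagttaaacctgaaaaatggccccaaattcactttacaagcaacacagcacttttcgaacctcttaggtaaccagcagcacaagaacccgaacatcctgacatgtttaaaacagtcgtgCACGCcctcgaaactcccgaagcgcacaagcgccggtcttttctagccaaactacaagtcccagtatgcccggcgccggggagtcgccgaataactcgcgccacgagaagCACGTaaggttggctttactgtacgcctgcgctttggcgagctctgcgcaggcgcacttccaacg
Eif2b5, chr16:20498567-20498866, plus strand: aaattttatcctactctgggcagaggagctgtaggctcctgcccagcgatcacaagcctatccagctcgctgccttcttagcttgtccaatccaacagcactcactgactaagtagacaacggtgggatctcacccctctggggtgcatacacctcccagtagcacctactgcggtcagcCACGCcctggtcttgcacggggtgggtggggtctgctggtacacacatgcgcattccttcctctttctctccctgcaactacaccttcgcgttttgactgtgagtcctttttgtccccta
Eif5, chr12:111537851-111538150, plus strand: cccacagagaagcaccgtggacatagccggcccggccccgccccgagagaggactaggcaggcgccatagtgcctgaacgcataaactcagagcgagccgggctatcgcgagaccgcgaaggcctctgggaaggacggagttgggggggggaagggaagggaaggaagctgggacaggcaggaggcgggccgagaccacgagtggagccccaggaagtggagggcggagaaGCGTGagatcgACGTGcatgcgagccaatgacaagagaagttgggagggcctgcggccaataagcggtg
Eif4a1, chr11:69672374-69672673, minus strand: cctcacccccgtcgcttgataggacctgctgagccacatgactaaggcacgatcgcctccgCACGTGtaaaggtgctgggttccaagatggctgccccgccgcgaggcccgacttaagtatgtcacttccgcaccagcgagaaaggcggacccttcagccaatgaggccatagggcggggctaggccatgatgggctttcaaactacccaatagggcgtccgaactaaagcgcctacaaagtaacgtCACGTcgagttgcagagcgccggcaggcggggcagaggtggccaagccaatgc
Eif4e, chr3:138527018-138527317, plus strand: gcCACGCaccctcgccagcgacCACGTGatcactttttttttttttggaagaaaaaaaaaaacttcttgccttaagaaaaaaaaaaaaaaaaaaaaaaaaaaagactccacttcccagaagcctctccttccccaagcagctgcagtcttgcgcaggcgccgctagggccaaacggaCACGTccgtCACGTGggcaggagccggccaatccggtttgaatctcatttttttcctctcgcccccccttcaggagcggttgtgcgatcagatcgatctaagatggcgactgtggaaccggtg

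Matches lay both under and outside the peaks. In Eif1b the GCGTG match was 47 bp from the peak centre and the E-box was 33 to 34 bp from it, both under the peak, and a CACGT match 180 bp away was outside it. In Eif2s2 the match CACGT, 17 bp from the centre, was under the peak, and CACGC, 93 bp away, was outside it. In Eif4a1 the E-box CACGTG, 9 to 10 bp from the centre of the single call, was under it, and a CACGT match 195 bp away was outside it. In Eif2b5, which had the highest score, the one match was 120 bp from the centre and outside the peak. That window holds only 50 bases of the peak. In Eif5 the matches were 137 and 148 bp from the centre and also outside it. The Eif4e window shown held a CACGC match, a CACGT match and E-boxes at 2 places, and the nearest peak of the gene was 22.1 kb away. Its other window, not shown, held CACGC matches and no E-box.

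Start codon recognition was represented by eIF1, eIF1A, eIF5 and eIF5B. eIF1 and eIF1A keep the scanning ribosome open until the start codon is found, and eIF5 makes eIF2 hydrolyse its GTP there. Eif1b, which encodes a close relative of eIF1, had a peak centred 12 bp inside its start (chr9:120492530-120492707), with a score of 7 and 2 calls. Eif1ad, which encodes a protein with an eIF1A-like domain, had a peak of score 3 and 2 calls 91 bp inside its start (chr19:5366831-5366977). The end of Banf1, a chromatin-binding protein gene, was only 28 bp from that peak. Eif1ax, the X-linked eIF1A gene, had a single call of score 2 at 181 bp before its start. Eif1 and Eif1a themselves had no peak within 50 kb. Eif5 had a peak of score 4 and 2 calls 154 bp before its start (chr12:111537877-111538018). The nearest peak of Eif5b, whose product joins the large ribosomal subunit, was 74.1 kb away, with a score of 6 and 2 calls.

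The eIF2 genes were split in the same way. Eif2s2, the gene of the β subunit, had a peak of score 9 and 2 calls centred 30 bp before its start (chr2:154892884-154892989). Of the 1989 peaks of 2 calls in the whole list, 12.2% scored at least 9. Eif2s3x, the X-linked gene of the γ subunit, had a single call of score 2 at 106 bp before its start. The nearest peaks of Eif2s1, whose product carries the regulatory phosphorylation site, and of the Y-linked Eif2s3y were 81.5 kb and over 1 Mb away. Of the kinases that place that phosphate, Eif2ak1, the haem-regulated one, had 3 single calls. They lay 345 bp before its start and 972 and 1186 bp inside it, with scores of 3, 2 and 3. Eif2ak2, the kinase activated by double-stranded RNA, had a single call of score 2 at 4848 bp. The nearest peak of Eif2ak4, the kinase that senses uncharged tRNA, was 123 kb away, of score 3 and 2 calls. Eif2d, a tRNA delivery factor that acts without eIF2, had a single call of score 2 at 62 bp before its start. For Eif2a the nearest peak was at 135 kb, of score 4 and 2 calls.

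Of the 5 genes of eIF2B, 3 had a peak within 1 kb, against 16.2% of all protein-coding genes. The catalytic subunit gene, Eif2b5, had the highest score of any initiation factor gene, 13 with 2 calls, in a peak centred 74 bp inside its start (chr16:20498817-20498922). Of all peaks of 2 calls, 6.33% scored at least 13. Eif2b1, the gene of the α subunit, had a single call of score 4 at 39 bp inside its start, which was also 56 bp from the general transcription factor gene Gtf2h3. Eif2b3, the gene of the γ subunit, had a single call of score 3 at 61 bp outside the gene. Eif2b4 had its nearest peak at 9315 bp, of score 3 and 2 calls, and Eif2b2 at 54.0 kb.

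eIF3 is the largest initiation factor, and the peaks near its 14 genes had scores of 2 to 4. A peak lay within 5 kb of 7 of them and within 1 kb of 5, against 24% and 16.2% of all protein-coding genes. None was of 2 calls, and the exact interval for 0 of 14 genes reached 23.2%. It held the 7.72% of all protein-coding genes with a peak of 2 calls within 5 kb. Eif3b, a core scaffold subunit, had a single call of score 3 at 20 bp before its start, and Eif3g one of score 3 at 72 bp before. Eif3c, also of the core, had one of score 4 at 212 bp before. Eif3e had calls of score 3 at 61 bp inside and 425 bp outside one gene end. Eif3h had calls of score 3 at 83 and 461 bp outside one end. The strand of Eif3e and Eif3h was not in the tables used. Eif3j1 and Eif3j2, which encode the loosely held eIF3j subunit, had single calls of score 2 at 4721 and 3840 bp. For each of these another protein-coding gene end was nearer, that of Spg11 for Eif3j1 and that of Gm3650 for Eif3j2. Of the rest, Eif3a had its nearest peak at 13 kb (score 2), Eif3d at 30.2 kb (score 3, 2 calls), Eif3m at 46.3 kb (score 2) and Eif3i at 49.0 kb (score 2, 2 calls). Eif3l at 127 kb and Eif3k at 146 kb had nearest peaks of 2 calls with scores of 3 and 5. Eif3f was 214 kb from a peak.

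Within the cap-binding machinery, a peak lay within 5 kb of 2 of the 4 eIF4A helicase genes, of both eIF4A helper genes and of 2 of the 3 eIF4G scaffold genes, and of none of the 4 genes of the cap-binding protein eIF4E. Over all protein-coding genes the share was 24%. Eif4a1, the gene of the main eIF4A helicase, had 3 peaks. A single call of score 4 lay 196 bp before its start, a peak of 2 calls and score 4 lay 1057 bp inside (chr11:69671313-69671419), and a single call of score 3 lay 4025 bp beyond its other end. The end of Senp3, a SUMO protease gene, was 491 bp from the first of these. Eif4a2, a second eIF4A helicase, had a single call of score 5 at 52 bp inside its start. Eif4a3, an exon junction helicase rather than a cap-binding factor, had its nearest peak at 6.62 kb, of score 6 and 2 calls, and Eif4a3l1, a related gene, had none within 50 kb. Eif4b and Eif4h, both helpers of eIF4A, had single calls of score 5 at 327 bp inside and of score 3 at 153 bp before their starts.

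Eif4g1, the main scaffold gene, had calls of score 3 at 83 and 299 bp inside its start. Eif4g2, a relative that lacks the eIF4E-binding site, had a call of score 5 at 284 bp inside one end. Eif4g3 had its nearest peak, of score 4, at 9.92 kb. The exact interval for 0 of 4 eIF4E genes with a peak within 5 kb reached 60.2%, and so held the 24% of all protein-coding genes. Their nearest peaks were all single calls, at 15.1 kb for Eif4e2, 22.1 kb for Eif4e, 90.0 kb for Eif4e1b and 273 kb for Eif4e3. Of the genes of proteins that bind eIF4E, Eif4ebp3 had a peak of score 3 and 2 calls 3965 bp outside the gene. That peak was 22 bp from the end of Sra1 and 865 bp from that of Apbb3. Eif4enif1, the transporter that takes eIF4E into the nucleus, had its nearest peak at 45.1 kb (score 6, 2 calls), and Eif4ebp2 at 66.1 kb.

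Of the last factors, Eif5a, whose product carries the hypusine residue and aids peptide bond formation, had a single call of score 3 at 2714 bp beyond its end. That peak was 18 bp from the end of Gps2 and 174 bp from that of Neurl4. Eif5a2 was 192 kb from a peak. Eif6, which keeps the ribosomal subunits apart, had its nearest peak at 7.82 kb, of score 2. Of the 14 complexes, 10 had a member with a peak within 1 kb and 12 within 5 kb, and 6 had a member with a peak of 2 calls within 5 kb. A complex counted through any of its genes, so these counts rise with size and have no background. At 5 kb, eIF5A and the 4E-binding proteins counted only through Eif5a and Eif4ebp3, whose peaks lay nearer to other gene ends. The complexes are small, and differences between their shares were not tested.

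For 8 of the 27 members with a peak within 5 kb, the nearest peak also lay within 1 kb of an end of another gene of any kind. The same count was not made for other genes, so whether this is common or rare cannot be told. For 5 members with a peak within 5 kb, another protein-coding gene end was nearer to it: Eif1ad, Eif3j1, Eif3j2, Eif4ebp3 and Eif5a. When each peak was given only to its nearest protein-coding gene end, 22 initiation factor genes (40.7%, from 50%) kept a peak within 5 kb. Of other genes, 19.1% did (from 23.9%). For peaks of 2 calls the shares were then 9.26% for initiation factor genes and 5.66% for other genes.

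**Figure D3:**
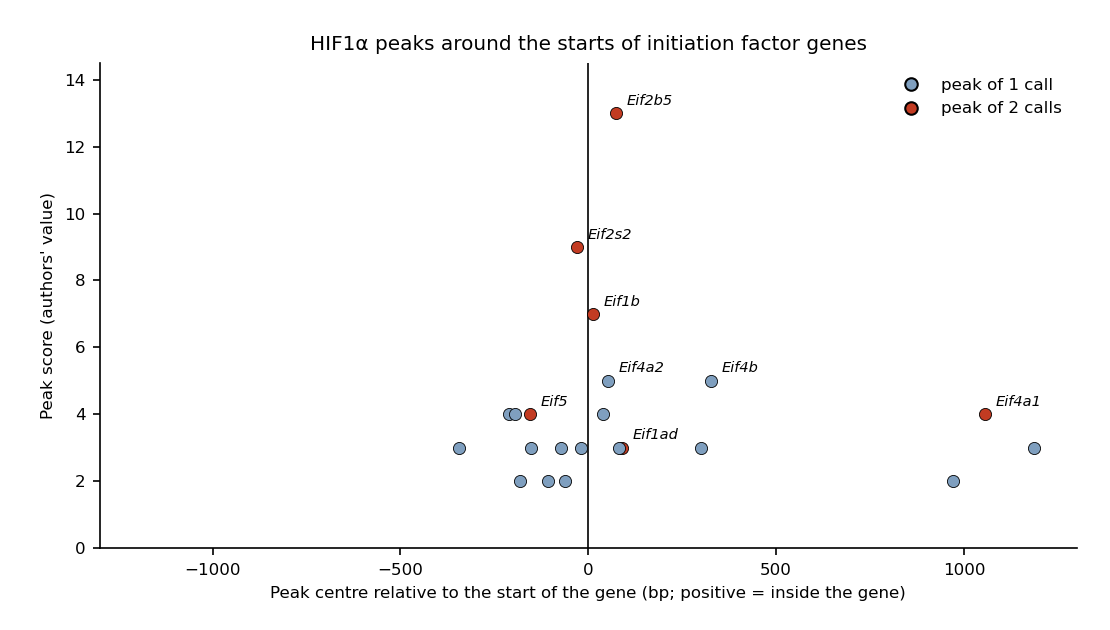
Peak score against the position in bp of the peak centre relative to the transcription start of initiation factor genes of known strand, with positive values inside the gene. The vertical axis is the peak score and colour gives the calls merged. The peaks of Eif1b, Eif2s2 and Eif2b5, with scores of 7, 9 and 13, lie within 100 bp of the start.

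Motif matches were common in promoters of initiation factor genes with and without a peak. ACGTG on either strand was in 37.5% of the 56 windows, against 20.9% of all protein-coding promoter windows. GCGTG was in 64.3%, against 38.5%. The E-box CACGTG, which contains ACGTG on both strands and so also counts as ACGTG but not as GCGTG, was in 21.4%, against 7.84%. Windows of the same gene can overlap and hold the same match, as in Eif5a. All these are therefore shares of windows, not of genes. Either core was in 76.8%, against 49.3%. Among the 13 member windows with a peak over at least 50 bases, 76.9% held either core. Among the 43 without, which came from 30 genes, 76.7% did. Windows with a shorter overlap, as in Eif4a2, Eif1ad and Eif4g1, were counted as without a peak. Of other genes' windows, 81.1% of the 726 with a peak of 2 calls held either core, 73.5% of the 1107 with a single call and 46.7% of those with no peak. A core lay under the peak in 8 of the 13 member windows (61.5%), against 921 of 1833 windows of other genes (50.2%). Only the part of a peak inside a window was searched, so a core elsewhere under the peak was not counted. Split by calls, the shares differed in opposite directions, with few member windows in each class. Under single calls the share was 66.7% of 9 member windows, against 40.0% of 1107 windows of other genes, and under peaks of 2 calls it was 2 of 4 (50.0%), against 478 of 726 (65.8%). A match is a description of letters and was not tested as a binding site.

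Peaks overlapped 13 of the 56 member windows by at least 50 bases (23.2%), against 8.65% of other genes' windows. By the same limit, peaks of 2 calls overlapped 4 (7.14%), against 3.42%. Base composition also differed between the groups. Member windows had a median GC content of 62.2% and a CpG observed to expected ratio of 0.889, against 56.3% and 0.567 over all protein-coding windows. Among member windows the medians were lower with a peak (57% and 0.863) than without (62.7% and 0.906). Among other genes' windows they were higher with a peak (63% and 0.847) than without (55.7% and 0.507). Of the 43 members with a window, 34 were in the highest tertile of CpG ratio over genes with a window. Within that tertile, 16 of 34 initiation factor genes (47.1%, 29.8 to 64.9%) had a peak within 5 kb, against 35.3% of the others. Within 1 kb the shares were 41.2% and 27.9%, and for peaks of 2 calls within 5 kb they were 14.7% and 13.2%. In the middle tertile, 5 of 8 members (62.5%) had a peak within 5 kb, against 25.8% of other genes. The difference between the groups in the highest tertile was thus smaller than over all genes, and the interval there held the share of the other genes.

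Gene length differed little, with a median of 18.5 kb in initiation factor genes and 17.2 kb in the others. In the shortest tertile of genes, 52.9% of initiation factor genes and 19.0% of others had a peak within 5 kb. The shares were 52.2% and 28.1% in the middle tertile, and 42.9% and 24.7% in the longest.

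**Figure D4:**
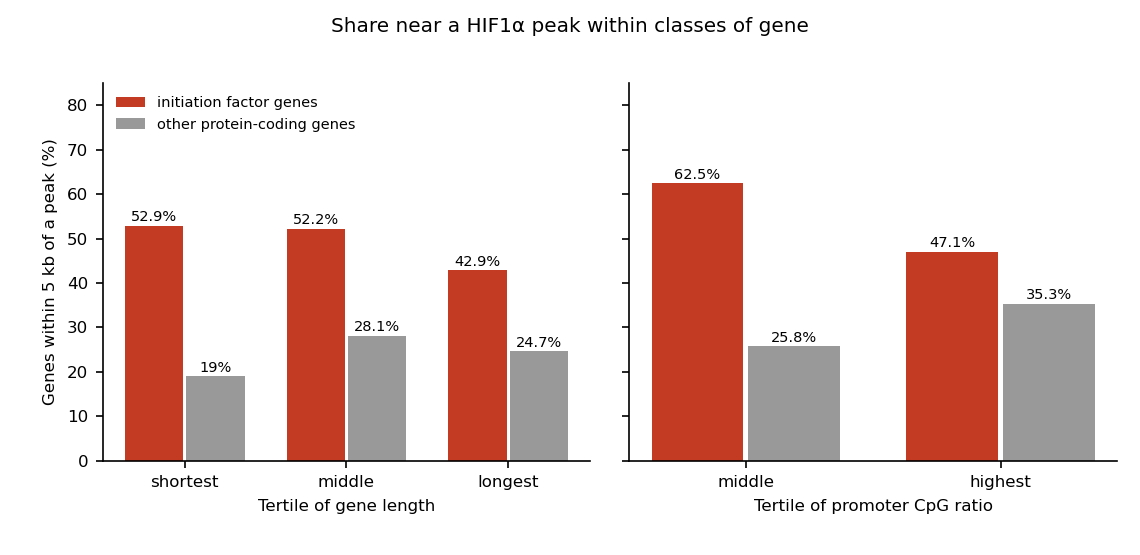
Share of genes (percent) with a HIF1α peak centre within 5 kb, by tertile of gene length and of promoter CpG observed to expected ratio, for initiation factor genes and, to their right, other protein-coding genes. In the highest tertile of CpG ratio the shares are 47.1% and 35.3%, and the lowest tertile held only 1 initiation factor gene and is not drawn.

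Other translation genes were also examined. Over all protein-coding genes, 24% had a peak within 5 kb and 7.72% a peak of 2 calls. Of 12 elongation and termination factor genes, 4 (33.3%, 9.92 to 65.1%) had a peak within 5 kb. Peaks of 2 calls lay within 5 kb of 1 gene (8.33%). This was Eef1b2, an exchange factor gene for the elongation factor eEF1A, at 163 bp with a score of 4. Of 21 genes for helpers and regulators of initiation, 8 (38.1%, 18.1 to 61.6%) had a peak within 5 kb. The intervals of both lists held the 23.9% of other protein-coding genes. Among the helpers, 2 (9.52%) had a peak of 2 calls. They were Pabpc4, a poly(A)-binding protein gene, at 359 bp with a score of 4, and Ppp1r15a, whose product removes phosphate from eIF2, at 198 bp with a score of 5. Cytosolic ribosomal protein genes had a peak within 5 kb in 35 of 85 cases (41.2%, 30.6 to 52.4%) and mitochondrial ones in 42 of 78 (53.8%, 42.2 to 65.2%). With peaks of 2 calls these were 14 of 85 (16.5%, 9.31 to 26.1%) and 23 of 78 (29.5%, 19.7 to 40.9%), set against 7 of 54 initiation factor genes (13%). The interval of the initiation factor share held both ribosomal shares for peaks of any kind. For peaks of 2 calls its upper bound of 24.9% held the cytosolic share and was below the mitochondrial one.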

How the data were processed

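ChIP-seq with an antibody against HIF1α was done on wild-type E12.5 hearts, and 2 pulldowns and 1 input were sequenced. Per the submitters' processing notes, Bowtie2 and HOMER were used on the mm10 build. For versions, calling thresholds and the merging rule, the sources used here give nothing. The authors deposited 1 merged peak list with a score per peak, a whole number whose scale is not stated. The last number of each peak name was read as calls. It came from peaks of both pulldowns, so no pulldown could be left out or compared alone, and the depth is unknown.

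Peak centres were set against both ends of protein-coding genes of the RefSeq table of GRCm38.p6, without strand, exons or genome sequence. Strand and promoter windows came from RefSeq promoter sequences. Genes placed under 3 Mb (Y apart), which lie on unplaced sequence, were left out. The main window was 5 kb. Python 3.11.15, pandas 2.3.3, scipy 1.17.1 and matplotlib 3.10.9 were used, and the distance search was checked on simulated data. Counts, shares and medians are described beside those of other genes, with no test.

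Every member with a peak within 5 kb was named, and other members were named with their nearest peak. The members, the lists of elongation factors and helpers, and the ribosomal protein genes (by symbol) were chosen with earlier results of these data known. Alternatives for the window, score, calls, gene end, assignment and members are given in the closing section.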

Additional observations from a re-analysis of the deposited data

How the results depend on the processing

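The share of initiation factor genes within 5 kb of a peak (50.0%) stayed inside its interval in 15 of 18 alternatives, and it was above that of other genes in 18 of 18. It moved to 70.4% (others 63.6%) in a 50 kb window, to 18.5% (others 10.5%) with scores of at least 4, and to 13% (others 7.71%) with peaks of 2 calls alone. The share near a peak of 2 calls (13%) stayed inside its interval in 12 of 15 alternatives, and was above that of other genes in 13 of 15. It moved to 25.9% in the 50 kb window (others 21.0%), to 29.4% (others 6.05%) in the shortest tertile of genes, and to 0% of 14 genes (others 7.81%) in the longest tertile. In the middle tertile of gene length it was 8.70%, against 9.27% of others. The median distance of 5.73 kb moved to 147 kb (others 270 kb) for peaks of 2 calls alone, and was 26.1 kb (others 59.8 kb) with scores of at least 3. The median score stayed within its interval in 6 of 6 alternatives. All alternatives reuse the same genes and peak list, and several are nested, so these counts are not independent support. Counting only the start side, where strand was known, gave 18 of 43 initiation factor genes (41.9%), against 19.8% of others. The lowest CpG tertile had 1 member, which had no peak within 5 kb (others 11.5%). It was too small to use and was not among the alternatives counted. No paired analysis was possible because the pulldowns are merged into 1 list, and for the same reason no replicate was left out. Depth limits every absence of a peak, and single calls, which make up most member peaks, were not shown to recur in the other pulldown.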

Other observations

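The 2 genes left out by the rule each had a peak close by. Eif2ak3, the kinase of the endoplasmic reticulum that phosphorylates eIF2, had a single call of score 4 at 378 bp, and Eif4ebp1, the best-known 4E-binding protein gene, had a peak of score 4 and 2 calls at 795 bp. Among 12 annotated non-coding genes with a symbol of the same form, Eif4a-ps4 alone had a peak within 5 kb, a single call of score 2 at 911 bp, and the nearest peaks of the others lay 8.02 to 291 kb away. Of all protein-coding genes, 24% had a peak within 5 kb. The share over all non-coding genes was not counted, so the low count has no like background.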
